A study of Mus musculus with 8 samples.

Results

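The genes described here are those of TGF-β reception and signalling and its feedback: the ligand gene Tgfb1, the receptor genes Tgfbr1, Tgfbr2 and Tgfbr3, the SMAD genes Smad2, Smad3, Smad4, Smad6 and Smad7, and the co-repressor gene Skil. The members were taken by gene symbol, and all 10 were found once each among 53465 gene IDs. All 10 also passed the filter on low counts and were tested. The samples were mouse Tregs polarized in culture, 4 libraries with the fatty acid-binding protein inhibitor BMS309403 at 50 µM (FABPi) and 4 without it (control). All mice were wild-type C57BL/6, and their age was not given in the sources used here. The starting CD4+ cells, which the protocol takes from lymph nodes as well as spleen and the tissue label from spleen alone, were activated with plate-bound anti-CD3 and soluble anti-CD28 for 72 h before the drug was added. In both groups the medium held IL-2, 5 ng/mL of TGF-β and antibodies that block IL-4, IL-12 and IFN-γ. The controls thus received added ligand too, and no group without TGF-β, and no vehicle, is named in the labels. BMS309403 is used here against FABP5, and other effects of the compound or its solvent cannot be told apart from that one. How long the drug was present is not stated in the labels. Nor do they tell whether replicates were different animals or cultures, and the p-values cover the spread between these libraries alone, which may be technical.

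TGF-β is secreted in a latent form. Once freed, it binds the type II receptor TGFBR2, which recruits and phosphorylates the type I receptor TGFBR1, while TGFBR3 (betaglycan) presents ligand without a kinase of its own. TGFBR1 phosphorylates the receptor-regulated SMADs, SMAD2 and SMAD3, which join SMAD4 and act on target genes in the nucleus. SMAD6 and SMAD7 are inhibitory SMADs, of which SMAD7 blocks TGFBR1 and SMAD6 acts mainly on bone morphogenetic protein receptors. SKIL (SnoN), like the related SKI, is a co-repressor that holds SMAD complexes inactive, and both Smad7 and Skil are known as targets that TGF-β itself induces. In CD4+ T cells TGF-β with IL-2 induces Foxp3 and with it the Treg state used here.

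Libraries held between 32.9 M and 44.6 M counts, and the 8 Treg and T cell markers gave summed levels of 6391 to 6727 CPM in FABPi and 5074 to 5660 CPM in control libraries. Of these, 5 rose and 1, Cd3e, fell. Marker lists of B cells (5.77 to 9.16 CPM in FABPi, 6.86 to 10.7 in control), myeloid cells (0.858 to 3.28, 1.87 to 3.48) and CD8 or NK cells (10.3 to 15.1, 10.0 to 14.4) overlapped between the groups in their sums, with 1 B cell gene and 1 myeloid gene called lower. The dendritic list was higher in FABPi (8.17 to 11.5, against 3.96 to 4.42 CPM in control), which was nearly all Zbtb46, with 1 count of Clec9a over all libraries. The stromal list (99.7 to 108, against 115 to 124 CPM) was nearly all Pecam1, with Col3a1 at 0, and held 1 gene called higher and 1 called lower. Pecam1 lay between 95.8 and 103 CPM in FABPi and between 112 and 121 CPM in control. Col1a2 went the other way, from 3.29 to 4.81 CPM in FABPi and from 1.78 to 2.17 CPM in control. Platelets carry much TGF-β1. The platelet and red cell list lay between 2.04 and 3.17 CPM in FABPi and between 1.64 and 2.69 CPM in control. This sum was nearly all Itga2b (1.91 to 3.03 CPM in FABPi, 1.30 to 2.67 in control), with Ppbp and Gp9 at 0. The part of such cells in the results was not tested. In bulk RNA, fewer cells of a type and less RNA per cell cannot be told apart. Fabp5 averaged 153 ± 18.3 CPM in FABPi and 178 ± 23.7 CPM in control (SD, n = 4; edgeR adjusted p = 0.0934, and 1.29e-05 with the replicate number as a block).

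Of the 10 genes, 4 fell and 2 rose with the drug, mostly by small amounts. Smad6, Smad3, Tgfbr2 and Smad7 fell, and Tgfbr3 and Smad4 rose, at an adjusted p under 0.05 in edgeR's quasi-likelihood test. Among all 14443 tested genes this test called 36.8% in either direction, 18.7% higher and 18.1% lower, so calls among the members are to be read against a transcriptome that changed widely. The median absolute log2 fold change was 0.16 over the members and 0.17 over all tested genes. Smad6 alone changed by at least 1.5-fold, as 11.4% of tested genes did. With the replicate number as a block, Tgfbr1 was also called higher and Tgfb1 also called lower. That made 3 members higher and 5 lower, while this fit called 52.4% of all tested genes, 26.6% higher and 25.8% lower. DESeq2 called 1 member higher and 4 lower, against 31.7% of its 16648 genes, 15.4% higher and 16.3% lower. The FABPi and control libraries did not overlap for 5 of the 10 genes, against 33.8% of all tested genes.

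The levels of the genes spanned a wide range. Per kilobase of annotated exon, in CPM per kb, Tgfb1 was highest at 76.7 ± 6.46 in FABPi and 84.3 ± 5.15 in control, above 96.2% of tested genes (SD, n = 4). Tgfbr1 followed at 48.7 ± 2.76 and 44.3 ± 2.84 CPM per kb in FABPi and control, then Skil at 28.9 ± 0.540 and 29.6 ± 1.37 and Smad4 at 25.2 ± 0.342 and 23.2 ± 0.752. Tgfbr2 and Smad7 were next, with libraries that overlapped in both groups, from 15.6 to 16.9 and from 14.2 to 16.0 CPM per kb in FABPi. In control they lay from 16.9 to 19.3 (Tgfbr2) and from 16.2 to 17.7 CPM per kb (Smad7). Within every single library, however, Tgfbr2 was above Smad7. Smad3 and Smad2 overlapped in FABPi, at 5.36 ± 0.182 and 5.10 ± 0.0827 CPM per kb, but not in control, at 7.03 ± 0.155 and 4.95 ± 0.258. Smad3 was above Smad2 within every library of both groups. Tgfbr3, at 1.98 ± 0.0882 in FABPi and 1.73 ± 0.109 in control, and Smad6, at 0.447 ± 0.102 in FABPi and 0.936 ± 0.163 in control, came last. The order of the 10 means was the same in both groups and with the length of the longest transcript in place of all exons.

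**Figure D1:**
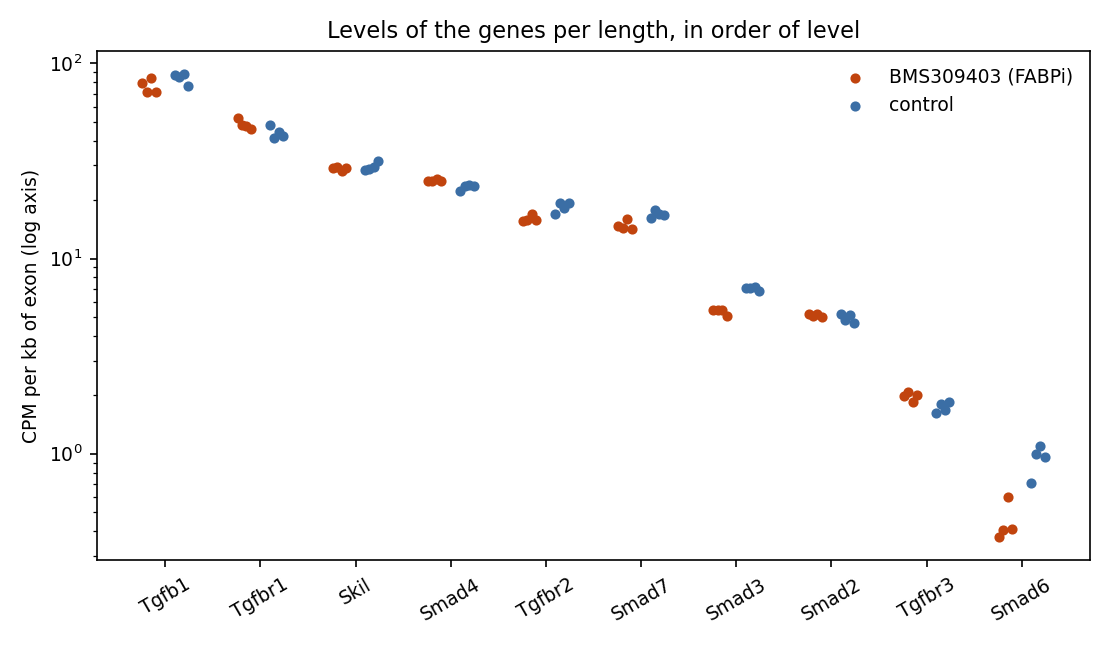
Level of each gene in every library, in CPM per kb of annotated exon on a log axis, with the 4 FABPi libraries left of the 4 control libraries. Tgfb1 lies highest and Smad6 lowest, and the FABPi points of Smad3 drop close to the level of Smad2.

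Tgfb1 (ENSMUSG00000002603, chromosome 7, 25687002 to 25705077, plus strand, GRCm38), the ligand gene, had 402, 359, 425 and 360.3 CPM in FABPi replicates 1 to 4, against 438, 428, 445 and 387 CPM in the control replicates. The groups overlapped, since FABPi replicates 1 and 3 lay above control replicate 4. Within each same-numbered pair, however, the FABPi library was the lower, by a log2 ratio between -0.25 and -0.07. The log2 fold change was -0.14 (SE 0.06, 95% interval -0.28 to 0.00), with an edgeR adjusted p = 0.115. Tgfb1 was called lower with the replicate block (adjusted p = 0.00332), without FABPi replicate 3 (0.0419) and without control replicate 4 (0.0426).

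Among the receptors, the type II gene fell, while the co-receptor gene rose with a call close to the threshold that many alternatives lost. Tgfbr2 (ENSMUSG00000032440, chromosome 9, 116084293 to 116175360, minus strand) had 128, 128, 138 and 129 CPM in FABPi, against 138, 158, 149 and 158 CPM in control replicates. FABPi replicate 3 and control replicate 1 were level with each other, and all other FABPi libraries lay below every control library. The log2 fold change was -0.21 (SE 0.05, 95% interval -0.32 to -0.10; edgeR adjusted p = 0.00731), 1.16-fold lower.

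Tgfbr1 (ENSMUSG00000007613, chromosome 4, 47353222 to 47414931, plus strand), which encodes the kinase that phosphorylates SMAD2 and SMAD3, had 343, 316, 312 and 301 CPM in FABPi, against 314, 272, 293 and 279 CPM in control. The groups overlapped through control replicate 1, and the FABPi library was higher in each of the 4 same-numbered pairs. Its log2 fold change was 0.14 (SE 0.06, 95% interval without adjustment 0.02 to 0.26), with an edgeR adjusted p = 0.0743. It was called higher with the replicate block (adjusted p = 0.00185), with upper quartile normalization (0.0395) and without control replicate 1 (0.0149).

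Tgfbr3 (ENSMUSG00000029287, chromosome 5, 107106570 to 107289629, minus strand), the betaglycan gene, had 13.0, 13.5, 12.1 and 13.2 CPM in FABPi, against 10.6, 11.7, 10.9 and 12.1 CPM in control. All FABPi libraries lay above all control libraries, FABPi replicate 3 by very little. The log2 fold change of 0.19 (SE 0.07, 95% interval 0.04 to 0.34) was close to the threshold, with an edgeR adjusted p = 0.0468. The call was lost without FABPi replicate 1 (adjusted p = 0.0756), 2 (0.126) or 4 (0.104) and without control replicate 1 (0.0867), 2 (0.0764) or 3 (0.122), and also with DESeq2 (0.0627). The gene shares 297 exon bases with Gm43422 on the same strand, which itself held 8 counts in FABPi and 6 in control libraries.

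**Figure D2:**
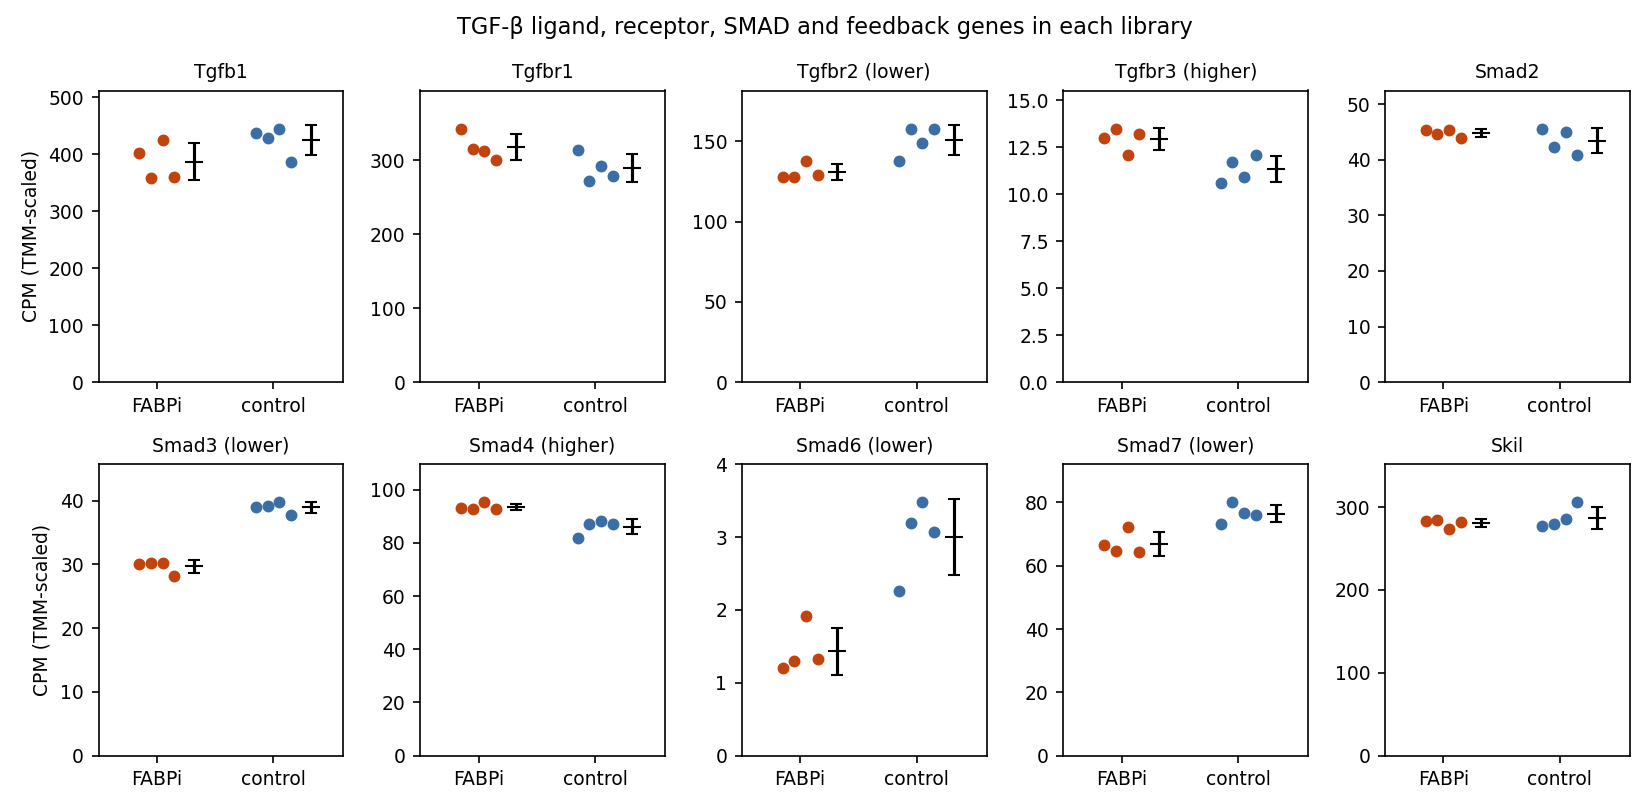
CPM of each gene in every library (points, replicates 1 to 4 from left to right), FABPi left of control, with mean and SD beside them. Each vertical axis starts at 0, titles mark genes called higher or lower, and Smad3 and Smad6 show the widest gaps between the groups relative to their level.

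Of the receptor-regulated SMAD genes, Smad3 fell and Smad2 did not pass the test. Smad3 (ENSMUSG00000032402, chromosome 9, 63646767 to 63757994, minus strand) had 30.1, 30.2, 30.3 and 28.2 CPM in FABPi, against 39.0, 39.2, 39.8 and 37.8 CPM in control. No FABPi library came near a control library, and the log2 ratios of the same-numbered pairs lay between -0.42 and -0.37. Smad3 fell by 0.39 on the log2 scale with an SE of 0.05 and a 95% interval of -0.49 to -0.29, 1.31-fold lower (edgeR adjusted p = 4.41e-05). Smad2 (ENSMUSG00000024563, chromosome 18, 76241580 to 76310963, plus strand) had 45.4, 44.7, 45.4 and 43.9 CPM in FABPi, against 45.6, 42.3, 45.0 and 40.8 CPM in control. The FABPi values lay within the range of the controls, and the log2 fold change was 0.05 (95% interval -0.06 to 0.15, edgeR adjusted p = 0.469).

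Smad4 (ENSMUSG00000024515, chromosome 18, 73639009 to 73703780, minus strand), the shared partner, had 93.3, 92.8, 95.4 and 92.8 CPM in FABPi, against 82.0, 87.3, 88.2 and 87.1 CPM in control. Every FABPi library lay above every control library, but the difference was small, 0.12 on the log2 scale with a 95% interval of 0.04 to 0.20 and an SE of 0.04 (edgeR adjusted p = 0.0288). The call was lost without FABPi replicate 1 (adjusted p = 0.0502), 2 (0.0593), 3 (0.0709) or 4 (0.0555), without control replicate 1 (0.054) or 2 (0.0602), and without a filter on low counts (0.0876).

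Both inhibitory SMAD genes fell. Smad6 (ENSMUSG00000036867, chromosome 9, 63953076 to 64022059, minus strand) had 1.20, 1.30, 1.91 and 1.32 CPM in FABPi, against 2.26, 3.19, 3.48 and 3.07 CPM in control. The groups did not overlap, with FABPi replicate 3 the highest of its group and control replicate 1 the lowest of the other. These levels rest on 47, 56, 74 and 55 counts in FABPi and 73, 142, 117 and 123 counts in control libraries. Smad6 was 2.10-fold lower, with a log2 fold change of -1.07 and a 95% interval of -1.46 to -0.68 (SE 0.18, edgeR adjusted p = 0.000645), and stood 510th of the 14443 tested genes by size of change.

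Smad7 (ENSMUSG00000025880, chromosome 18, 75367529 to 75395935, plus strand) had 66.5, 64.5, 72.3 and 64.2 CPM in FABPi, against 73.2, 80.1, 76.5 and 76.1 CPM in control. FABPi replicate 3 came close to control replicate 1, and no library crossed over. The log2 fold change was -0.19 (SE 0.05, 95% interval -0.30 to -0.09; edgeR adjusted p = 0.00823), 1.14-fold lower. Skil (ENSMUSG00000027660, chromosome 3, 31095058 to 31122577, plus strand), a feedback gene of the same pathway, had 283, 284, 273 and 282 CPM in FABPi, against 277, 279, 285 and 306 CPM in control. The groups overlapped and the log2 fold change was -0.03 (95% interval -0.12 to 0.06, edgeR adjusted p = 0.583).

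**Figure D3:**
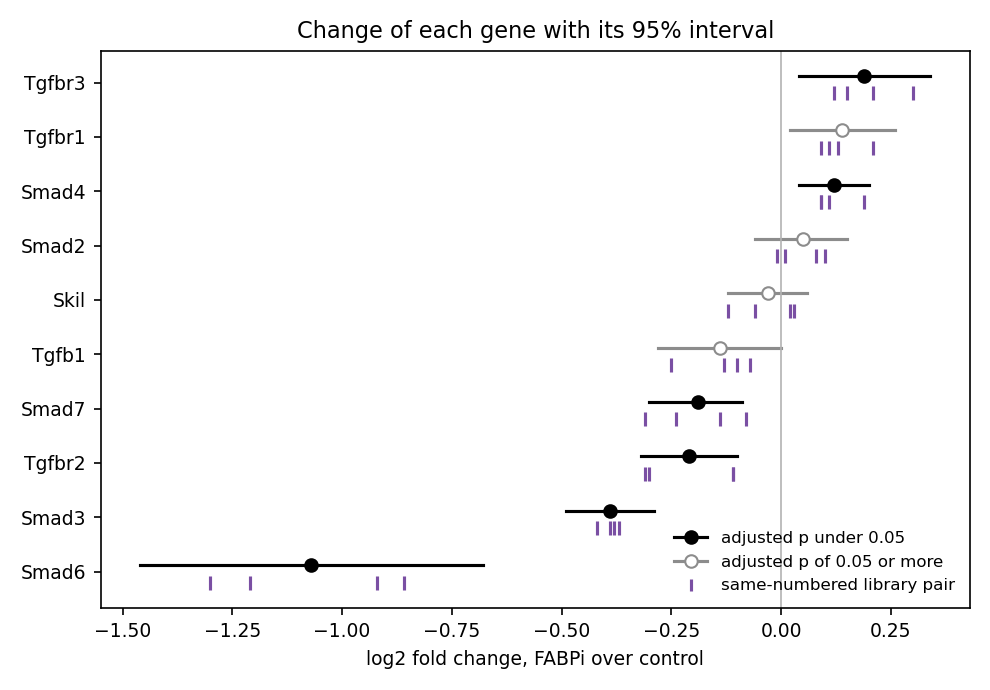
Log2 fold change, FABPi over control, of each gene (circles) with its unadjusted 95% interval (bars), filled where the adjusted p was under 0.05, and the log2 ratio of each same-numbered library pair (ticks). Smad6 lies at -1.07 and Smad3 at -0.39, and all other genes lie between -0.21 and 0.19.

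RefSeq start windows on GRCm38.p6 were matched by symbol for 5 of the 10 genes. Smad7, Smad2, Smad4, Tgfbr3 and Skil had no window, so whether their starts hold the motifs below is not known here. The stretches from 150 bases before to 20 bases after the annotated start are shown for the genes called lower that had a window, Smad6, Smad3 and Tgfbr2, to set the start of the most changed gene beside the others. Capitals mark the palindrome GTCTAGAC, the optimal element bound by the DNA-binding domain of SMAD3 and SMAD4.
Smad6, chr9:64022040-64022209, minus strand: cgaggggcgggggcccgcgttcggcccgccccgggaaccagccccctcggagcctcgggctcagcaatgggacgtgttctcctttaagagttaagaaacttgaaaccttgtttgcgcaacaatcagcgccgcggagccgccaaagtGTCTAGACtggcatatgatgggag
Smad3, chr9:63757975-63758144, minus strand: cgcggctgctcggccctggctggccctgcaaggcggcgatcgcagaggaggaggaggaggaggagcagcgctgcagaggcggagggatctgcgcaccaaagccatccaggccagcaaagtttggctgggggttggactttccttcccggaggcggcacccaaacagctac
Tgfbr2, chr9:116175344-116175513, minus strand: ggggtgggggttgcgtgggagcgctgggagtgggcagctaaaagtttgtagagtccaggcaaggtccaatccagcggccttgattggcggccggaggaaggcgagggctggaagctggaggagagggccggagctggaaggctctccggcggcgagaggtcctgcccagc
In the Smad6 window the palindrome begins 4 bases before the annotated start and runs across it. The full windows of 300 bases held it in 70 of 32851 cases (0.213%), Smad6 being the only member among the 5 with a window. Among 125 other pathway genes with a window, it was found for Runx3 alone, which rose 1.58-fold. A link between the palindrome and the change of a gene was not tested. The shorter SMAD motif CAGACA, sought on both strands, was in 21% of all windows and, among members, in the second Tgfbr1 window only. A match is a run of letters and does not show binding, and Smad6 counts are no measure of start site use.

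Within a library, the ratio of 2 genes does not depend on the scaling of that library. The ratio of Smad3 to Smad2, in CPM per kb, was 1.05, 1.07, 1.06 and 1.02 in FABPi, against 1.36, 1.47, 1.40 and 1.47 in control, with no overlap. The ratio of Smad7 to Smad3 was 2.76 ± 0.128 in FABPi and 2.41 ± 0.0957 in control (SD, n = 4), again without overlap. The ratio of Tgfbr1 to Tgfbr2 was 3.37, 3.09, 2.83 and 2.93 in FABPi, against 2.85, 2.15, 2.46 and 2.21 in control, where control replicate 1 lay above FABPi replicate 3. Ski, the gene of the other co-repressor, fell to 324 ± 6.93 CPM in FABPi, against 369 ± 11.8 CPM in control (log2 fold change -0.19, edgeR adjusted p = 0.00283). The ratio of Skil to Ski was 0.497 ± 0.0124 in FABPi and 0.446 ± 0.0175 in control, without overlap. These ratios are descriptions and were not tested.

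**Figure D4:**
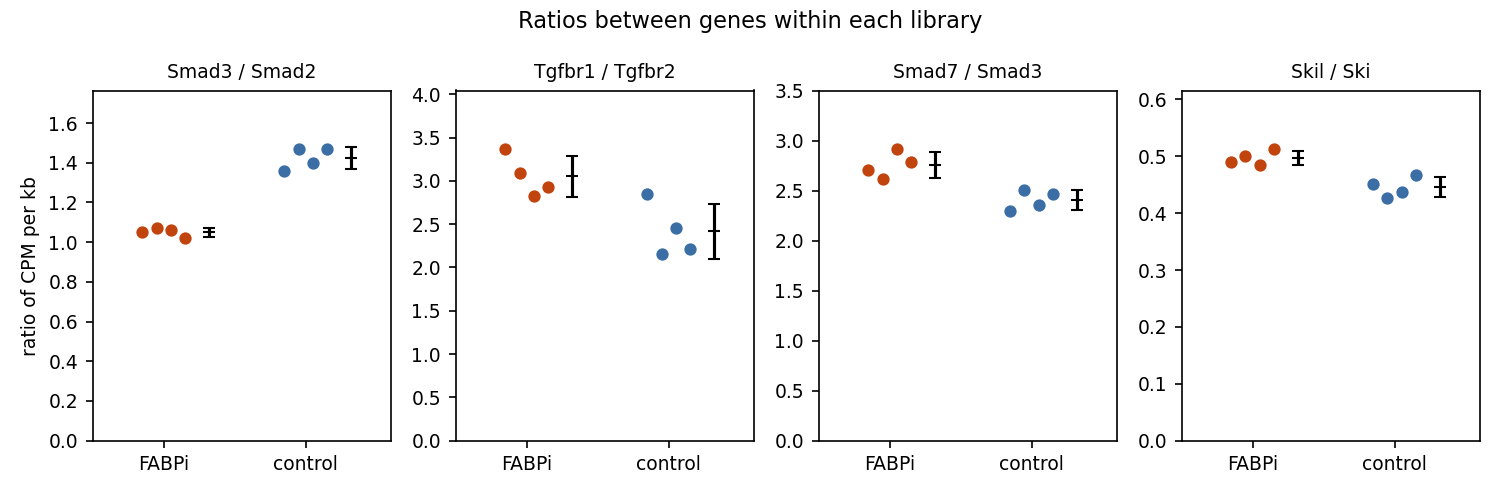
Ratio of 2 genes' CPM per kb in every library (points), FABPi left of control, with mean and SD; axes start at 0. Smad3 over Smad2 lies between 1.02 and 1.07 in FABPi and between 1.36 and 1.47 in control libraries.

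The other genes of the pathway were grouped in lists by role, which were chosen with earlier results of these data known. Over all tested genes 18.7% were called higher and 18.1% lower, or 26.6% and 25.8% with the replicate block. The counts in this and the following lists are to be read against these shares. In ligands, latency and activation, 8 of 17 tested genes rose and 4 fell, with a median log2 fold change of 0.15, against 0.01 over all tested genes. Inhba, which encodes a subunit of activin, a ligand that also signals through SMAD2 and SMAD3, rose 6.94-fold to 10.5 ± 0.558 CPM in FABPi, against 1.54 ± 0.590 CPM in control (SD, n = 4; edgeR adjusted p = 3.33e-07). Itgb8, the integrin chain that pairs with the αV chain to free latent TGF-β on Tregs, rose 3.34-fold to 3.91 CPM, against 1.17 CPM in control. Thbs1, whose product thrombospondin can activate latent TGF-β, rose 2.23-fold to 11.3 CPM, against 5.08 CPM. Lrrc32 (GARP), which tethers latent TGF-β to the Treg surface, and Furin, which cleaves its precursor, rose 1.12-fold and 1.37-fold. Of the latent TGF-β binding protein genes, Ltbp3 was 3.05-fold lower at 0.477 CPM in FABPi, against 1.46 CPM in control, and Ltbp1 rose 1.96-fold to 0.714 CPM, against 0.364 CPM. Itgb5 was 1.84-fold lower. Tgfb3, another TGF-β ligand gene, was 1.82-fold lower at 1.26 ± 0.352 CPM in FABPi, against 2.28 ± 0.431 CPM in control (edgeR adjusted p = 0.0062).

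In the list of other receptors of the superfamily and co-receptors, 5 of 16 tested genes fell and 1 rose (median log2 fold change -0.09), or 6 and 3 with the replicate block. Nrp1, a co-receptor that can bind TGF-β and is a Treg surface marker, fell to 81.4 ± 5.62 CPM in FABPi, against 154 ± 7.09 CPM in control (1.89-fold lower, edgeR adjusted p = 1.55e-07). Acvrl1 (ALK1), a type I receptor, and Eng (endoglin), its co-receptor, were 1.78-fold and 1.75-fold lower, at 31.5 and 3.22 CPM in FABPi, against 55.9 and 5.65 CPM in control. Tgfbrap1, which encodes a protein that binds TGF-β receptors, rose 1.21-fold. Acvr1b, the activin type I receptor, was 1.13-fold lower, a call that was lost when FABPi replicate 4 (adjusted p = 0.0554) or control replicate 2 (0.0778) was left out. Bmpr2 was 1.12-fold lower and was called in the full set and without FABPi replicate 1 or control replicate 1, while leaving out any other library gave an adjusted p between 0.05 and 0.106.

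Among other SMADs and partners, 5 of 21 tested genes rose and 3 fell (median 0.01), or 7 and 6 with the block. Runx3, a transcription factor that works with SMADs in T cells, rose 1.58-fold to 133 ± 4.25 CPM in FABPi, against 84.0 ± 4.70 CPM in control (edgeR adjusted p = 7.24e-07), while its relative Runx1 was 1.27-fold lower. Crebbp, a co-activator, and Smad5, a SMAD of the bone morphogenetic protein branch, rose 1.22-fold and 1.16-fold. Smad1, of that same branch, had a log2 fold change of 0.01 (edgeR adjusted p = 0.947). Foxh1 was 1.56-fold higher at only 0.606 CPM in FABPi, against 0.382 CPM in control, and its call held in no set with a library left out other than that without FABPi replicate 2 (adjusted p 0.0544 to 0.101 in the others). Ets1 was 1.12-fold lower, with an adjusted p = 0.0507 without FABPi replicate 2.

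Among co-repressors, ubiquitin enzymes and phosphatases that act on the pathway, 6 of 26 genes rose and 7 fell (median 0.03), or 11 and 8 with the block. Ldlrad4, which encodes an inhibitor that keeps SMADs from the receptor and is itself induced by TGF-β, was 1.39-fold lower at 55.2 ± 1.80 CPM in FABPi, against 76.6 ± 7.93 CPM in control (edgeR adjusted p = 0.000204). Pdlim7 was 1.26-fold lower. The largest rises were those of Pml, 1.55-fold, which is also an interferon-induced gene, of the deubiquitinase gene Usp11, 1.51-fold, of Ppp1r15a, 1.38-fold, which is also a stress-induced phosphatase subunit gene, and of the co-repressor gene Tgif1, 1.32-fold. In the non-SMAD branch 7 of 18 genes rose and 2 fell (median 0.02), or 8 and 5 with the block. Sos1, Traf4, Traf6, Tab2 and Pik3r1 rose by 1.39-fold, 1.36-fold, 1.36-fold, 1.17-fold and 1.18-fold, and Map3k7, the gene of the kinase TAK1, was 1.22-fold lower.

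Genes reported as induced by TGF-β in any cell type moved in both directions: 12 of 29 tested genes rose and 11 fell (median 0.05), of which Ski, Tgif1, Ldlrad4 and Pmepa1 also stand in the list of co-repressors and enzymes. Il9 rose 18.8-fold to 3.82 ± 0.449 CPM in FABPi, against 0.202 ± 0.0719 CPM in control, and Gadd45b rose 4.14-fold to 47.2 CPM, against 11.4 CPM. Tgfbi rose 3.88-fold to 1.18 CPM, against 0.308 CPM. Xcl1 and Rgs16 were 3.56-fold and 2.36-fold lower. Foxp3, the lineage factor of Tregs, rose 1.31-fold to 1247 ± 15.3 CPM, against 950.0 ± 55.6 CPM in control (edgeR adjusted p = 6.05e-05).

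Of genes reported as repressed by TGF-β, 9 of 22 tested genes rose and 1, Klf2, fell (median 0.25); with the block 11 rose and 7 fell. Il13 rose 3.94-fold to 1.81 CPM in FABPi, against 0.470 CPM in control, and Il12rb2, a chain of the IL-12 receptor, rose 2.32-fold to 59.0 ± 4.68 CPM, against 25.5 ± 3.97 CPM. Fasl rose 1.98-fold, with no overlap of the groups. Eomes rose 1.99-fold to 3.48 ± 1.11 CPM in FABPi, against 1.77 ± 0.715 CPM in control, and the groups overlapped. In this list, FABPi libraries lay wholly above control for 4 of 22 tested genes and wholly below for 1. The shares over all tested genes were 17.7% and 16.1%. Ifng, 2.42-fold higher at 10.0 ± 4.37 CPM in FABPi, against 4.20 ± 2.59 CPM in control, overlapped between the groups. Its adjusted p was 0.0511 without control replicate 2 and 0.0516 without control replicate 3. Il4 was 2.36-fold higher at 0.448 CPM in FABPi, against 0.188 CPM in control, and lost its call without FABPi replicate 1 (adjusted p = 0.11) or 3 (0.0714) and without control replicate 2 (0.0558), 3 (0.107) or 4 (0.0992). Klf2 was 1.28-fold lower.

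**Figure D5:**
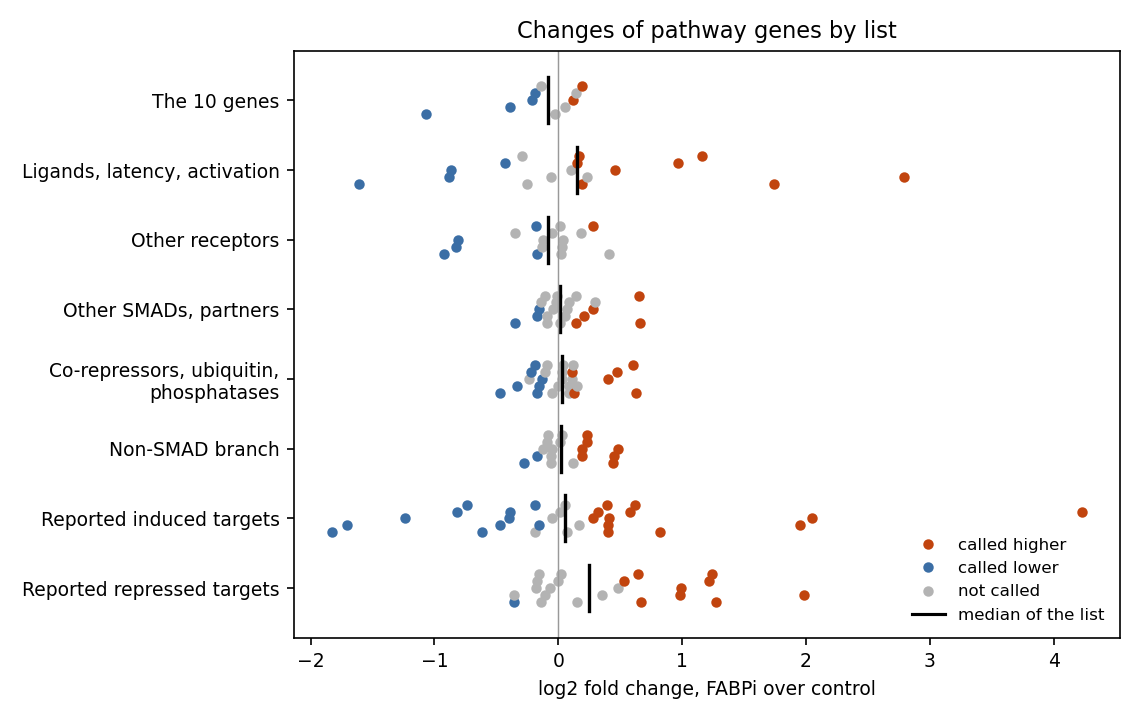
Log2 fold change, FABPi over control, of every tested gene (points) of the 10 genes and of each pathway list, coloured by call, with the median of each list as a bar. Reported repressed targets have the highest median, 0.25, and the 10 genes have a median of -0.08.

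By the profile of log2(CPM + 0.5) over the 8 libraries, among genes averaging at least 5 CPM, the genes most like Smad6, the largest fall, were Lbh, Cxcr4 and Cryz, with Pearson r of 0.992, 0.991 and 0.991. Of 9908 genes compared, 701 had an r above 0.9. For Tgfbr3, the largest called rise, these were Gpatch2, Setd1b and Myo9a, with r of 0.987, 0.984 and 0.984, and 352 of 9907 genes exceeded 0.9. All points share their libraries and the treatment, and the values describe the profiles alone.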

How the data were processed

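RNA from 8 Treg samples, 4 FABPi and 4 control, was sequenced as stranded poly(A) libraries, per the labels' protocols. The authors deposited raw read counts per Ensembl gene. STAR, featureCounts, DESeq2 and deepTools and the build GRCm38 are named in the submitters' processing notes, without versions or roles. The strand setting and annotation release are not given in the sources used here, so genes that overlap others or have near-identical copies are uncertain. Of the members, Tgfbr3 alone shares exon bases with another annotated gene. Symbols, coordinates and exon lengths came from GENCODE M21, which matched 53360 of 53465 IDs. The listed name Ctgf matched no ID and is the older name of Ccn2.

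All genes were fitted together with edgeR 4.0.16 (R 4.3.3): filterByExpr, TMM normalization and the quasi-likelihood F-test on group alone, with Benjamini-Hochberg adjustment over 14443 genes and a threshold of 0.05. The SE was derived from the F statistic. CPM were scaled with the TMM factors, and errors beside means are SDs. A fold is the fitted value. Levels between genes are CPM per kb of the union of annotated exons. The tests were also run on simulated counts of unpaired libraries. Changes as small as most of those among the members were not simulated.

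Alternatives were RLE and upper quartile normalization, no filter, DESeq2 1.42.0, limma-voom (limma 3.58.1), the replicate block and leaving out each library. As a check of pairing, departures from the group mean were correlated across genes between libraries sharing a number, at 0.524, 0.214, 0.2 and 0.39 for numbers 1 to 4. Between libraries of different numbers the correlations lay between -0.405 and 0.285. The highest of these, FABPi replicate 2 with control replicate 4, was above the values for numbers 2 and 3. All same-number values exceed 0.1, so the block was read as a paired fit. The labels name no pairs, however, so the main test kept group alone and the block stayed an alternative. Calls of Tgfb1 and Tgfbr1 depended on this choice. Replicates differed by more than sampling noise (chi-square per degree of freedom 3.08 to 24.2), and none was counted as a duplicate.

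The members and the pathway lists were chosen with earlier results of these data known. All members are named, and per list at most 6 called genes in order of absolute log2 fold change. Lrrc32, Furin, Tgfb3, Smad1, Foxp3 and Klf2 are named beyond that rule, with their values already known. Ski, also beyond that rule, is named for the ratio of Skil to Ski. Some listed genes stand in more than 1 list. A named gene of the induced targets is not reported here.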

Additional observations from a re-analysis of the deposited data

Results flagged for a closer look

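Within the groups of 4 libraries, 28 sets of values were examined (10 genes and 4 ratios in each group), and 2 held a library far from the other 3, where chance gives about 1 in 20. Tgfbr2 had 138 CPM in FABPi replicate 3, against 128, 128 and 129 CPM in the other FABPi libraries. Smad3 had 28.2 CPM in FABPi replicate 4, against 30.1, 30.2 and 30.3 CPM. Both genes were called lower without the library named.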

How the results depend on the processing

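Over the 14 alternatives, no member changed direction and 118 of 140 log2 fold changes stayed on their side of the threshold. Tgfbr2, Smad3, Smad6 and Smad7 were called lower in every alternative. Tgfb1 (-0.14) and Tgfbr1 (0.14) passed with the replicate block, and Tgfbr1 with upper quartile normalization (0.15). Tgfbr3 missed the threshold with RLE normalization (0.18), DESeq2 (0.18) and no filter (0.20), as did Smad4 with no filter (0.12); the cause was not tested. With libraries left out in turn, log2 fold changes lay between -0.18 and -0.10 for Tgfb1, 0.09 and 0.18 for Tgfbr1, 0.16 and 0.22 for Tgfbr3 and 0.10 and 0.13 for Smad4. Members called higher numbered 1 with RLE normalization, 1 with DESeq2, 0 with no filter (against 2) and 0 to 2 with a library left out.

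Other receptors called higher, 1 in the main test, numbered 2 with upper quartile normalization, no filter, DESeq2 or limma-voom and 3 with the replicate block, and 1 to 2 with a library left out, when 3 to 6 were lower. Other SMADs and partners called higher numbered 3 to 4 with a library left out, against 5. With the block, calls numbered 6 lower among these partners (against 3), 11 higher among co-repressors and enzymes (6), 5 lower in the non-SMAD branch (2) and 7 lower among repressed targets (1), which had 1 to 4 with a library left out. Members called higher numbered 3 with the block, against 2, and the other counts of calls moved by at most 1.5 times. Some moved by that much: repressed targets called higher numbered 6 to 10 with a library left out, against 9. Co-repressors and enzymes called higher numbered 4 to 6, against 6. The block called 7573 genes, against 5311. Using the longest transcript moved 16 of 20 levels per kb by more than 1 SD and kept their order. Smad6 rests on 47 to 142 counts per library, so its fold is the least precise of the 10.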
